A study of Homo sapiens with 8 samples.

Results

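The genes described here are 40 named genes of mitosis and of the step from G2 phase into mitosis, which make the regulators of entry, the kinetochore, the spindle and the cleavage machinery. They were taken as a list of symbols, each of which matched 1 of the 57736 Ensembl identifiers in the deposited tables, and all 40 passed the filter on low values. RNA was sequenced in 8 libraries of LS174T, an established human colon adenocarcinoma line, 2 libraries in each of 4 groups. In one derivative a hairpin against the long non-coding RNA WiNTRLINC1 was induced for 3 days with doxycycline at 1 ug/ml, and its untreated cells grew equally long without the drug. In the other derivative the hairpin was directed against ASCL2, a bHLH factor known from the stem cells of the gut, with the same treatment and the same kind of untreated cells. All cells overexpress the Tet repressor, which keeps the hairpin silent until doxycycline is added, and clones of the WiNTRLINC1 line had been screened by RT-PCR for knockdown. No cells without a hairpin were given doxycycline, so within each line the drug and its hairpin cannot be told apart. In all 8 samples the genotype label gives the opposite hairpin target from the title; grouping is by title. The study asked which genes change on loss of either transcript.

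Cells enter mitosis when cyclin B bound to CDK1 is switched on by CDC25 phosphatases and PLK1, and they leave it when the anaphase-promoting complex marks cyclin B and securin for destruction. Most genes of this programme are silent in resting cells and are transcribed together late in the cycle by B-MYB and FOXM1 on the MuvB complex, which binds a short element called the cell cycle genes homology region, next to CCAAT boxes bound by NF-Y. In intestinal epithelium the programme marks the dividing cells of the crypt, and ASCL2 is known from the stem cells at the crypt base. In RNA from whole cultures, fewer cells in the phase and less RNA per cell cannot be told apart.

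Promoter sequence was available for 34 of the 40 genes in the RefSeq table for GRCh38.p14, with 250 bases before and 50 after each annotated start. The genes without an entry were AURKA, BIRC5, FOXM1, TPX2, TTK and UBE2C. Of the 34 genes, 30 (88.2%) held TTTGAA or TTTAAA, the letters searched for the cell cycle genes homology region. This compares with 21.8% of the 12262 tested genes with an entry and 27.9% of all 27305 symbols. Other spellings of the element were not searched. Letters were searched on both strands, and a gene counted if any of its windows held them. CCAAT stood in 27 genes (79.4%), against 42.7% of tested genes, and 24 genes held both motifs. The E2F letters GGCGGGAA or TTTGGCGC stood in 4 genes (11.8%), against 7.14% of tested genes and 52.8% of 36 replication and S-phase genes. The E-box CAGCTG, of the kind bound by ASCL2 and other bHLH factors, also stood in 4 genes (11.8%), against 22.7% of tested genes. Such a match describes letters in a window, not binding. The 5 stretches printed here are the 150 bases before the start, all on the plus strand, with both motifs in capitals. They are shown for 3 genes with both motifs (CCNB1, CDC20 and PLK1), for ANLN, which rose in the WiNTRLINC1 line, and for MYBL2, the 1 gene with neither motif.
CCNB1: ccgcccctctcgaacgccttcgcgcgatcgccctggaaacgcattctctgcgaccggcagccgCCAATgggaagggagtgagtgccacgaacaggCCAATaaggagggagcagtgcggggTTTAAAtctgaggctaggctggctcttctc
CDC20: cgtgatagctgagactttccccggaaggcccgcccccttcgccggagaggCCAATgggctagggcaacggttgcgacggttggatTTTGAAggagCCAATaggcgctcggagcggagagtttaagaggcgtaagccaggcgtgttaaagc
PLK1: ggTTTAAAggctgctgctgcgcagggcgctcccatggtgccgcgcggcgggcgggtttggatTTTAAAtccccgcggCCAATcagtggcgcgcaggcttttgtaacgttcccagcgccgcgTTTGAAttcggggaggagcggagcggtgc
ANLN: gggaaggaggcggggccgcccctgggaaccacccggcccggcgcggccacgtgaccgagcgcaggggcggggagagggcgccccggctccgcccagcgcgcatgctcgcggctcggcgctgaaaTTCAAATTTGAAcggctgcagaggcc
MYBL2: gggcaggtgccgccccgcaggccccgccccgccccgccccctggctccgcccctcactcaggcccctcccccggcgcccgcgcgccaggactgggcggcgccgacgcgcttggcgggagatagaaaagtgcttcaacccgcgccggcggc
The stretches lie at chr5:69167000-69167149 for CCNB1, chr1:43358831-43358980 for CDC20, chr16:23678739-23678888 for PLK1, chr7:36389712-36389861 for ANLN and chr20:43666964-43667113 for MYBL2. In CCNB1 the homology element began 30 bases before the start and the CCAAT boxes 87 and 55 bases before it. The CDC20 stretch had 1 element, at 65 bases, between CCAAT boxes at 100 and 55 bases, while a searched window of CDC20 held 2. PLK1 had elements at 148, 88 and 29 bases with a CCAAT box at 73 bases. ANLN had the element on each strand, at 26 and 20 bases, and no CCAAT box. The MYBL2 stretch held no capitals.

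Deposited values are whole numbers that look like scaled read counts, though how they were scaled is not stated. Their totals lay between 21524463 and 22941231 per library, and 31503 to 33959 identifiers were above 0. Between the 2 libraries of a group, chi-square over degrees of freedom was 5.06 to 7.26 on these values. Scaling by a factor multiplies this statistic by that factor, so it cannot be set against counting alone. Since no label calls the libraries of a group separate cultures, p-values cover the spread among these libraries alone, which may be technical. All 14 colon epithelium markers reached at least 100 in every library. The summed values of 6 fibroblast and 6 immune markers stayed at or below 304 and 106. Those of the endothelium markers CDH5, KDR and VWF stayed at or below 33, and a further one, PECAM1, matched no identifier. The targeted gene ASCL2 had 805 and 697 with doxycycline and 2540 and 2034 without it in the WiNTRLINC1 line, and 532 and 586 with and 2855 and 3373 without it in the ASCL2 line. It fell in both lines (log2 fold change -1.60 and -2.47), and so does not settle which label of the hairpin is right. WiNTRLINC1 is not analysed here.

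With the WiNTRLINC1 hairpin induced, 20 of the 40 mitotic genes passed the test, 18 of them lower. Their summed value was 85704 and 90311 in the doxycycline libraries against 102946 and 110731 in the untreated ones, or 0.39% and 0.405% against 0.461% and 0.496% of all values. Fits used limma on log2(value + 1) over 22100 genes, a gene being called where its p, adjusted by Benjamini-Hochberg, was under 0.05, and n = 2 libraries per group throughout. The 18 genes called lower and the 2 called higher, BIRC5 and ANLN, stand against a background of 9.03% lower and 9.54% higher among all tested genes. Among the 9831 genes with a mean at or above that of the lowest member, 14.9% were called lower and 16.6% higher. The median log2 fold change of the 40 genes was -0.25, against 0.01 over all tested genes. Both doxycycline libraries lay below both untreated ones for 28 of the 40 genes, against 26.5% of all tested genes. Falls ran from 1.22-fold (KIF2C) to 2.69-fold (MYBL2), and MYBL2 and ASPM passed 2-fold. The count called lower depended on single libraries: it was 10 without doxycycline library 1 and 11 without untreated library 2.

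In the ASCL2 line mitotic genes fell broadly but modestly. The summed value was 61025 and 62056 with doxycycline against 78367 and 79935 without it, or 0.276% and 0.271% against 0.353% and 0.371% of all values. Here 33 of the 40 genes were called lower and 1, CDC25B, higher, against a background of 12.7% lower and 13.9% higher. Among the 9831 genes with a mean at or above that of the lowest member, 19.6% were lower and 24.2% higher. The median log2 fold change was -0.47, against 0.01 over all tested genes, and 36 genes lay below without overlap, against 29.8% of all tested genes. Falls ran from 1.17-fold (KIF2C) to 1.98-fold (CDCA3), and none passed 2-fold. The sum of the 6 fibroblast markers was 184 and 193 with doxycycline against 299 and 304 without it. This followed the single gene COL1A1, at 60 and 99 with doxycycline against 200 and 222 without it. PDGFRB went the other way, at 71 and 66 against 54 and 47, and COL3A1 values overlapped. Of the 6 markers 2 stayed below 10 in every library, and the part of these markers in the result was not tested.

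The genes called lower in both lines were 16 of the 40, against 2.95% of all tested genes: CCNB1, CDC25C, FOXM1, MYBL2, CDC20, PTTG1, CDCA3, AURKB, CENPA, CENPF, KIF20A, KIF2C, NUSAP1, DLGAP5, ASPM and MKI67. CDCA8 and CENPE were called lower in the WiNTRLINC1 line and not called in the ASCL2 line. Another 16 were called lower in the ASCL2 line and not called in the WiNTRLINC1 line. Among all tested genes 12.7% were called lower in the ASCL2 line, those lower in both lines included. A call in 1 line only is not a difference between lines. Of those 16 the difference was called only for CCNB2, PLK1, BUB1, BUB1B, UBE2C, PRC1, HMMR and ECT2. TTK, NUF2 and KIF23 were called in neither line. The difference itself, the WiNTRLINC1-line response minus the ASCL2-line response, was called for 16 genes: 12 higher and 4 lower, against a background of 7.39% higher and 7.6% lower. Among the 9831 genes with a mean at or above that of the lowest member 12.7% were higher and 13.5% lower. The share of 4 in 40 lower does not reach the latter. Its median was 0.20 on the log2 scale, against -0.01 over all tested genes. Without treated library 2 or untreated library 1 of the WiNTRLINC1 line the 12 became 6 and 7, and without any 1 of 4 libraries (treated 1 and untreated 2 of the WiNTRLINC1 line, treated 2 and untreated 1 of the ASCL2 line) the 4 became 2. Pearson's r between the responses over the 40 genes was 0.078 and Spearman's rho 0.083, given as a description of genes that share the same 8 libraries.

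**Figure D1:**
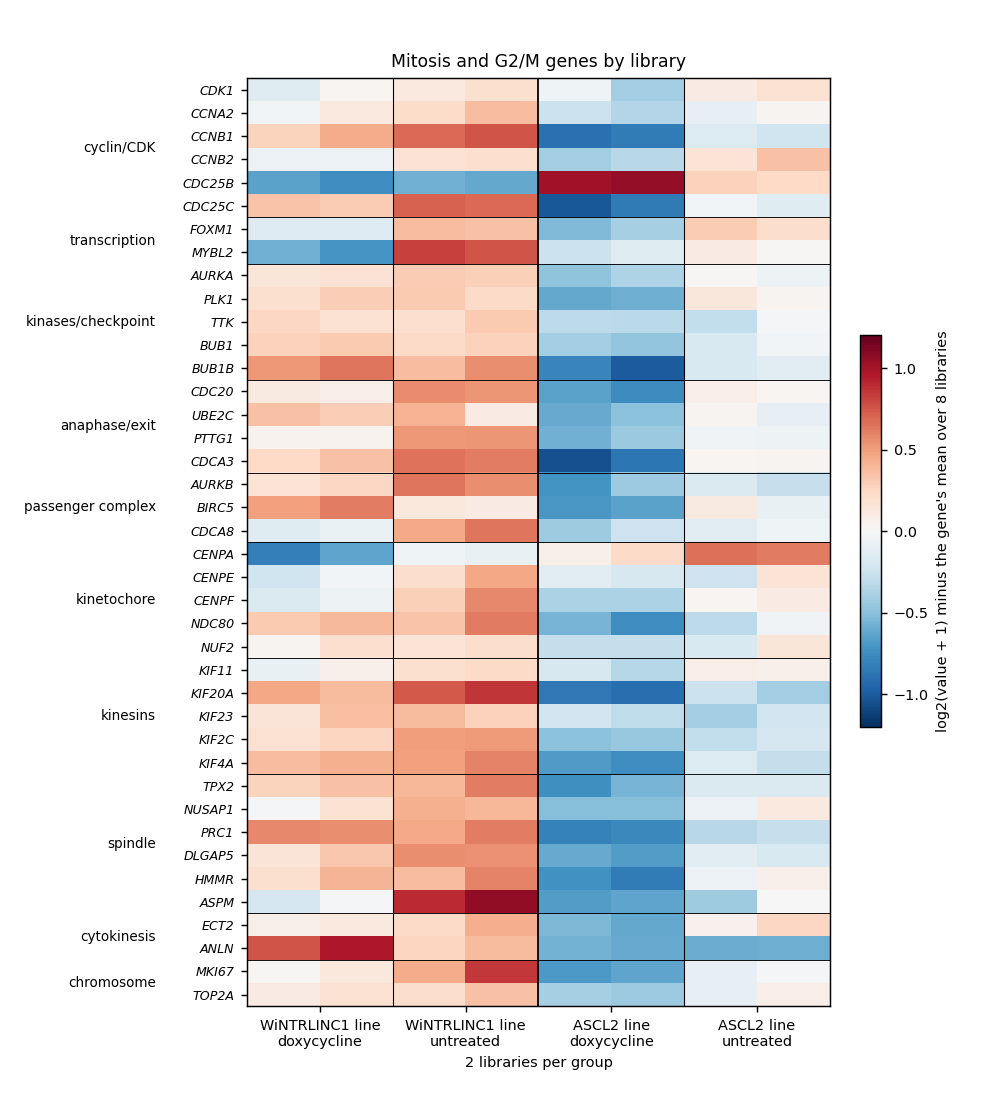
Each row is 1 of the 40 genes, grouped by role, and each column 1 of the 8 libraries; colour gives log2(value + 1) minus the gene's mean over 8 libraries. In 35 genes both treated WiNTRLINC1-line libraries lie above both treated ASCL2-line libraries, against 37.8% of all tested genes, and in 34 genes the untreated ones do so, against 35.7%.

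**Figure D2:**
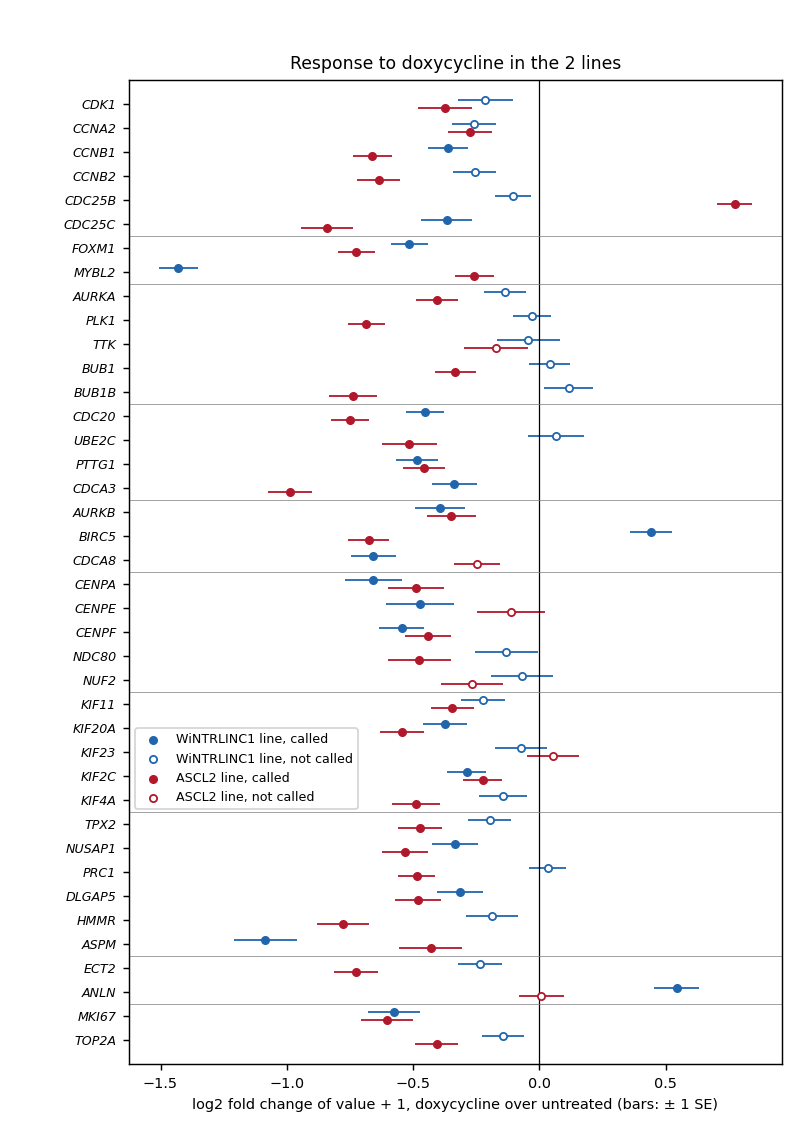
Points give each gene's log2 fold change of value + 1, doxycycline over untreated, in the WiNTRLINC1 line (blue) and the ASCL2 line (red), with bars of 1 SE; filled points passed an adjusted p of 0.05. Blue points spread from -1.43 for MYBL2 to 0.54 for ANLN, and red points lie left of 0 except for CDC25B, KIF23 and ANLN.

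Among the cyclins and their kinase, the cyclin B genes fell most in the ASCL2 line. CCNB1 (ENSG00000134057, chromosome 5) encodes the main mitotic cyclin. It had 4301 and 4871 with doxycycline and 5747 and 6020 without it in the WiNTRLINC1 line, and 1928 and 1993 with and 3182 and 3022 without it in the ASCL2 line. The treated libraries lay below the untreated ones in each line, and both treated WiNTRLINC1 libraries lay above both untreated ASCL2 libraries. CCNB1 fell 1.28-fold in the WiNTRLINC1 line (log2 fold change -0.36 ± 0.0779 SE, limma adjusted p = 0.00434) and 1.58-fold in the ASCL2 line (-0.66 ± 0.0779 SE, limma adjusted p = 2.1e-05). CCNB2 (ENSG00000157456, chromosome 15), another B-type cyclin, had 1260 and 1265 with doxycycline against 1493 and 1523 without it in the WiNTRLINC1 line, which did not overlap but missed the threshold (-0.26 ± 0.0855 SE, limma adjusted p = 0.0503). In the ASCL2 line it had 991 and 1048 against 1488 and 1688, a 1.55-fold fall (-0.64 ± 0.0855 SE, limma adjusted p = 6.88e-05). For CCNB2 the log2 responses were 0.38 apart (limma adjusted p = 0.0468). CDK1, the mitotic kinase, and CCNA2, the cyclin of S and G2 phase, were not called in the WiNTRLINC1 line (log2 fold changes -0.21 and -0.26) and fell 1.3-fold and 1.21-fold in the ASCL2 line. A copy of CCNB2, CCNB2P1, held values of 108 to 207. On the opposite strand 9.08% of the CCNA2 exon bases overlap EXOSC9, which held up to 1138. Whether counting used strand is not stated.

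The CDC25 phosphatases, which remove the inhibitory phosphates from CDK1, parted in the ASCL2 line. CDC25B (ENSG00000101224, chromosome 20), the form known to act first at the G2/M step, had 10120 and 10445 with doxycycline against 6079 and 5956 without it there. It was the 1 gene of the 40 that rose in this line, 1.71-fold (0.77 ± 0.0698 SE, limma adjusted p = 1.66e-06). CDC25B in the WiNTRLINC1 line had 3223 and 2993 with doxycycline against 3383 and 3296 without it, which was not called (-0.10 ± 0.0698 SE, limma adjusted p = 0.353). The difference of -0.88 ± 0.0987 was called (limma adjusted p = 2.74e-05). CDC25C (ENSG00000158402, chromosome 5), which works within mitotic entry, had 720 and 701 against 928 and 906 in the treated and untreated WiNTRLINC1 libraries and 280 and 315 against 554 and 513 in those of the ASCL2 line. Treated values lay below untreated ones in both lines. CDC25C fell 1.29-fold (-0.37 ± 0.102 SE, limma adjusted p = 0.0203) in the WiNTRLINC1 line and 1.79-fold (-0.84 ± 0.102 SE, limma adjusted p = 2.78e-05) in the ASCL2 line, and the responses differed by 0.47 (limma adjusted p = 0.0383). CDC25C shares 8.78% of its exon bases with FAM53C on the opposite strand, which held up to 2386.

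Leaving out 1 library ended some of these cyclin and CDC25 calls. In the WiNTRLINC1 line the limma adjusted p reached 0.0749 for CCNB1 (without doxycycline library 1) and 0.116 for CDC25C (without doxycycline library 2), and CDC25C lost its call without any 1 of its line's 4 libraries. For the ASCL2 line it reached 0.263 for CDK1 and 0.193 for CCNA2, both without doxycycline library 2. Untreated library 2 also ended the calls of CDK1 and CCNA2, and doxycycline library 1 that of CCNA2. The CCNB2 and CDC25C differences missed the threshold without any 1 of 7 and 6 of the 8 libraries, with limma adjusted p up to 0.157 and 0.145.

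The transcription factors of the programme fell in both lines. FOXM1 (ENSG00000111206, chromosome 12), the forkhead factor of late-cycle genes, had 3588 and 3576 with doxycycline against 5143 and 5096 without it in the WiNTRLINC1 line, and 2757 and 3032 against 4938 and 4621 in the ASCL2 line. Neither pair of groups overlapped. It fell 1.43-fold (-0.52 ± 0.0736 SE, limma adjusted p = 0.000169) in the WiNTRLINC1 line and 1.65-fold (-0.72 ± 0.0736 SE, limma adjusted p = 5.09e-06) in the ASCL2 line, and the difference of 0.21 ± 0.104 was not called (limma adjusted p = 0.213). MYBL2 (ENSG00000101057, chromosome 20) encodes B-MYB, which turns MuvB from a repressor into an activator. With doxycycline it had 1823 and 1664 in the WiNTRLINC1 line against 4787 and 4596 without it, so that this line had the highest MYBL2 values when untreated and the lowest when treated. The ASCL2 line had 2278 and 2455 with doxycycline against 2917 and 2739 without it. MYBL2 fell 2.69-fold in the WiNTRLINC1 line (-1.43 ± 0.0786 SE, limma adjusted p = 2.49e-08) and 1.2-fold in the ASCL2 line (-0.26 ± 0.0786 SE, limma adjusted p = 0.0249), and the difference was -1.17 ± 0.111 (limma adjusted p = 6.52e-06). The ASCL2-line fall of MYBL2 lost its call without treated library 1 or untreated library 1 (limma adjusted p = 0.178 and 0.145). FOXM1 shares 15.9% of its exon bases with ITFG2 on the opposite strand, which held at most 721.

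**Figure D3:**
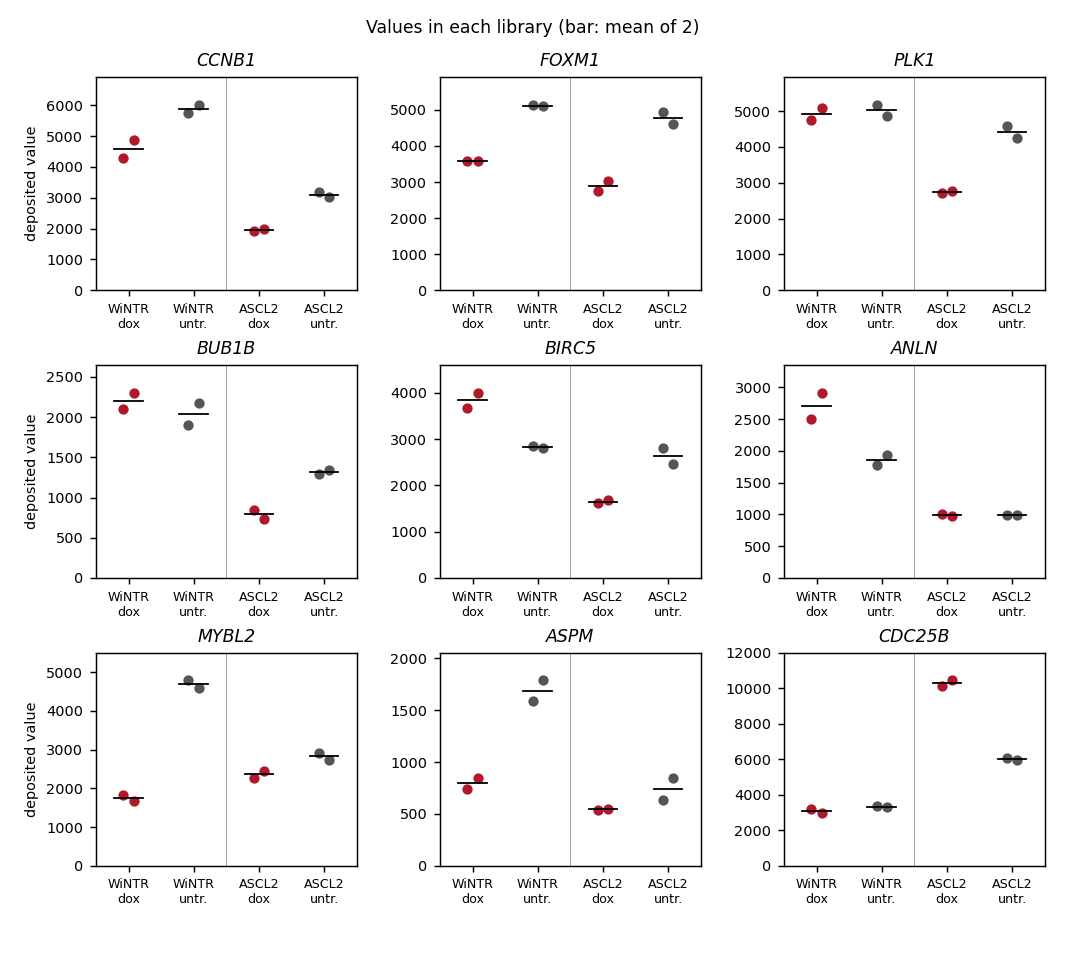
Points are the deposited values in each of the 8 libraries for 9 genes, doxycycline in red and untreated in grey, and bars are means of 2. CCNB1 and FOXM1 are lower with doxycycline in both lines, PLK1 and BUB1B in the ASCL2 line, BIRC5 is higher in the WiNTRLINC1 line and lower in the ASCL2 line, and MYBL2 and ASPM drop most in the WiNTRLINC1 line.

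None of the 5 mitotic kinase and checkpoint genes was called in the WiNTRLINC1 line, and 4 fell in the ASCL2 line. The shares of all tested genes were 9.03% lower and 9.54% higher in the WiNTRLINC1 line, and 12.7% lower in the ASCL2 line. With only 5 genes, the lack of calls in the WiNTRLINC1 line lies near its shares. PLK1 (ENSG00000166851, chromosome 16), the polo kinase that drives entry, spindle assembly and cleavage, had 4762 and 5086 with doxycycline against 5175 and 4872 without it in the WiNTRLINC1 line, which overlap, and 2713 and 2772 against 4575 and 4251 in the ASCL2 line. PLK1 had a log2 fold change of -0.03 ± 0.0736 in the WiNTRLINC1 line and fell 1.61-fold in the ASCL2 line (-0.69 ± 0.0736 SE, limma adjusted p = 8.62e-06). The difference of 0.66 ± 0.104 was called (limma adjusted p = 0.00052). BUB1B (ENSG00000156970, chromosome 15) encodes BUBR1, the checkpoint protein that holds back the anaphase-promoting complex. It had 2106 and 2304 with doxycycline against 1904 and 2171 without it, which overlap, in the WiNTRLINC1 line, and 851 and 737 against 1296 and 1346 in the ASCL2 line. BUB1B had a log2 fold change of 0.12 in the WiNTRLINC1 line and fell 1.67-fold in the ASCL2 line (-0.74 ± 0.0954 SE, limma adjusted p = 4.93e-05), a difference of 0.85 ± 0.135 (limma adjusted p = 0.000508). BUB1 (ENSG00000169679, chromosome 2), the kinase that recruits the checkpoint proteins to kinetochores, had 2008 and 2050 against 1940 and 2003 in treated and untreated WiNTRLINC1 libraries and 1249 and 1189 against 1456 and 1617 in the ASCL2 line. The treated values lay just above the untreated ones in the WiNTRLINC1 line and below them in the ASCL2 line. BUB1 had a log2 fold change of 0.04 in the WiNTRLINC1 line and fell 1.26-fold in the ASCL2 line (-0.33 ± 0.0808 SE, limma adjusted p = 0.00683), and the responses differed by 0.37 (limma adjusted p = 0.039). AURKA, the kinase of the spindle poles, had a log2 fold change of -0.14 in the WiNTRLINC1 line and fell 1.32-fold in the ASCL2 line. TTK, the MPS1 kinase that starts checkpoint signalling, was called in neither (-0.04 and -0.17 in the WiNTRLINC1 and ASCL2 lines). Both BUB1 calls rested on single libraries: the fall was lost without treated or untreated library 2 of the ASCL2 line (limma adjusted p = 0.0671 and 0.0709), and the difference without any 1 of 7 libraries (up to 0.137). PLK1 shares 11.6% of its exon bases with AC008870.3 on the opposite strand, which held at most 80. It also shares 0.882% with ERN2 on that strand, which held up to 2811.

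Genes of anaphase and mitotic exit included the largest fall of the 40 in the ASCL2 line. CDCA3 (ENSG00000111665, chromosome 12), an F-box-like protein that helps to degrade WEE1, had 1358 and 1461 with doxycycline against 1802 and 1758 without it in the WiNTRLINC1 line, a 1.26-fold fall (-0.34 ± 0.0888 SE, limma adjusted p = 0.0151). In the ASCL2 line it had 553 and 629 against 1165 and 1176, a 1.98-fold fall (-0.99 ± 0.0888 SE, limma adjusted p = 1.59e-06). The difference of 0.65 ± 0.126 was called (limma adjusted p = 0.00238). CDC20 (ENSG00000117399, chromosome 1), the activator of the anaphase-promoting complex in mitosis, had 2294 and 2246 against 3151 and 3070 in treated and untreated WiNTRLINC1 libraries and 1358 and 1262 against 2245 and 2161 in the ASCL2 line. Neither pair overlapped, and CDC20 fell 1.37-fold (-0.45 ± 0.0751 SE, limma adjusted p = 0.000577) in the WiNTRLINC1 line and 1.68-fold (-0.75 ± 0.0751 SE, limma adjusted p = 4.41e-06) in the ASCL2 line. UBE2C (ENSG00000175063, chromosome 20), the ubiquitin-conjugating enzyme of the same complex, had 1075 and 1029 with doxycycline against 1124 and 898 without it in the WiNTRLINC1 line, and 552 and 598 against 858 and 787 in the ASCL2 line. The untreated WiNTRLINC1 libraries enclosed the treated ones. UBE2C had a log2 fold change of 0.07 in the WiNTRLINC1 line and fell 1.43-fold in the ASCL2 line (-0.52 ± 0.109 SE, limma adjusted p = 0.00272), and the difference was 0.58 (limma adjusted p = 0.0187). PTTG1, securin, fell 1.4-fold in the WiNTRLINC1 line and 1.37-fold in the ASCL2 line, with a difference of -0.03 ± 0.117. The WiNTRLINC1-line call of CDCA3 was lost without treated library 1 or either untreated library (limma adjusted p up to 0.124, without treated library 1). The UBE2C difference was lost without any 1 of 4 libraries (limma adjusted p up to 0.0848, without untreated WiNTRLINC1 library 2). Near-identical copies held reads, with CDC20P1 at 326 to 897 and PTTG3P at 144 to 428, so CDC20 and PTTG1 values depend on how reads were shared out. The same holds for UBE2C, whose copies UBE2CP4, UBE2CP1 and UBE2CP3 held 44 to 110, 8 to 84 and 17 to 68. CDCA3 shares 9.71% of its exon bases with GNB3 on the opposite strand, which held at most 55.

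The chromosomal passenger complex, which corrects wrong attachments and later sets up cleavage, split by subunit. BIRC5 (ENSG00000089685, chromosome 17) encodes survivin, the subunit that brings the complex to the centromere. It had 3671 and 4004 with doxycycline against 2848 and 2798 without it in the WiNTRLINC1 line, but 1616 and 1675 against 2814 and 2457 in the ASCL2 line. Treated libraries lay above the untreated ones in the WiNTRLINC1 line and below them in the ASCL2 line. BIRC5 rose 1.36-fold in the WiNTRLINC1 line (0.44 ± 0.0824 SE, limma adjusted p = 0.00154) and fell 1.6-fold in the ASCL2 line (-0.68 ± 0.0824 SE, limma adjusted p = 2.9e-05), a difference of 1.12 ± 0.117 (limma adjusted p = 1.45e-05). CDCA8 (ENSG00000134690, chromosome 1) encodes borealin, the partner of survivin. It had 1582 and 1656 with doxycycline against 2395 and 2722 without it in the WiNTRLINC1 line and fell 1.58-fold (-0.66 ± 0.0899 SE, limma adjusted p = 0.000115). The ASCL2 line had 1297 and 1468 against 1586 and 1690, which missed the threshold (-0.25 ± 0.0899 SE, limma adjusted p = 0.0565). The CDCA8 difference of -0.41 was called (limma adjusted p = 0.0415), but not without any 1 of 6 libraries (up to 0.182, without treated ASCL2 library 2). AURKB, the kinase of the complex, fell 1.31-fold in the WiNTRLINC1 line and 1.27-fold in the ASCL2 line. Each AURKB call was lost without treated 1 or untreated 1 of its line (limma adjusted p up to 0.0965 in the WiNTRLINC1 line and 0.214 in the ASCL2 line).

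At the centromere and kinetochore, CENPA and CENPF fell in both lines. CENPA (ENSG00000115163, chromosome 2), the histone variant that marks centromeres, had 262 and 299 with doxycycline against 448 and 436 without it in the WiNTRLINC1 line, and 487 and 545 against 733 and 712 in the ASCL2 line. Neither pair overlapped, and all 4 WiNTRLINC1 libraries lay below all 4 ASCL2 libraries. CENPA fell 1.58-fold (-0.66 ± 0.111 SE, limma adjusted p = 0.000704) in the WiNTRLINC1 line and 1.4-fold (-0.49 ± 0.111 SE, limma adjusted p = 0.00455) in the ASCL2 line. CENPF (ENSG00000117724, chromosome 1), a large kinetochore protein of G2 and mitosis, had 3184 and 3446 against 4373 and 5348 in treated and untreated WiNTRLINC1 libraries and 2760 and 2748 against 3640 and 3837 in the ASCL2 line. It fell 1.46-fold (-0.55 ± 0.0899 SE, limma adjusted p = 0.000559) in the WiNTRLINC1 line and 1.36-fold (-0.44 ± 0.0899 SE, limma adjusted p = 0.00209) in the ASCL2 line. CENPE, the kinetochore motor, fell 1.39-fold in the WiNTRLINC1 line and had a log2 fold change of -0.11 in the ASCL2 line. NDC80, which grips microtubules, had a log2 fold change of -0.13 in the WiNTRLINC1 line and fell 1.39-fold in the ASCL2 line, while its partner NUF2 was called in neither (-0.07 and -0.27). None of the 5 differences between lines was called, and they ran from -0.36 to 0.34. Over all tested genes the difference was called higher for 7.39% and lower for 7.6%, so this lies near those shares. Single libraries ended the calls of CENPE in the WiNTRLINC1 line (limma adjusted p = 0.178 and 0.198, without treated 1 or untreated 2) and of CENPA in the ASCL2 line (0.0607 without treated 1). NDC80 in the ASCL2 line was lost without treated or untreated library 2 (limma adjusted p up to 0.117). CENPA shares 6.96% of its exon bases with SLC35F6 on the same strand, which held up to 3546.

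Of the 5 mitotic kinesins, 2 fell in the WiNTRLINC1 line and 4 in the ASCL2 line, and none was called in the difference. Among all tested genes 9.03% and 12.7% were called lower in these lines. The difference was called higher for 7.39% and lower for 7.6%, so its lack of calls in 5 genes lies near those shares. KIF20A, a motor of the central spindle, fell 1.29-fold in the WiNTRLINC1 line and 1.46-fold in the ASCL2 line. KIF2C, a microtubule depolymerase, fell 1.22-fold and 1.17-fold in the WiNTRLINC1 and ASCL2 lines. KIF11, which pushes the poles apart, and KIF4A, a chromosome-bound motor, were not called in the WiNTRLINC1 line (-0.22 and -0.14) and fell 1.27-fold and 1.4-fold in the ASCL2 line. KIF23, the motor subunit of centralspindlin, had log2 fold changes of -0.07 and 0.05 in the WiNTRLINC1 and ASCL2 lines and was called in neither. Differences of the responses ran from -0.13 to 0.35. Calls lost without a single library were KIF20A in the WiNTRLINC1 line (limma adjusted p up to 0.0775, without treated library 2 or untreated library 2) and KIF11 in the ASCL2 line (0.106 without treated library 2). KIF2C lost its call in the WiNTRLINC1 line without any 1 library of that line, and in the ASCL2 line without any 1 of 6 libraries (limma adjusted p up to 0.117 and 0.195). KIF4A has the near-identical copy KIF4B, which held 149 to 518. KIF20A shares 3.34% and 1.72% of its exon bases with BRD8 and CDC23 on the opposite strand, which held up to 4143 and 1683.

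Of the 6 spindle genes 3 fell in the WiNTRLINC1 line and all 6 in the ASCL2 line. The shares of all tested genes called lower were 9.03% and 12.7% in these lines. HMMR (ENSG00000072571, chromosome 5), which organises spindle poles, had 1336 and 1547 with doxycycline against 1512 and 1769 without it in the WiNTRLINC1 line, which overlap, and 706 and 653 against 1114 and 1219 in the ASCL2 line, which do not. HMMR had a log2 fold change of -0.19 in the WiNTRLINC1 line and fell 1.72-fold in the ASCL2 line (-0.78 ± 0.103 SE, limma adjusted p = 5.93e-05), and the difference was 0.59 (limma adjusted p = 0.0117). PRC1 (ENSG00000198901, chromosome 15), which bundles the midzone microtubules, had 6267 and 6171 against 5738 and 6439 in treated and untreated WiNTRLINC1 libraries and 2394 and 2453 against 3328 and 3461 in the ASCL2 line. Every WiNTRLINC1 library was above every ASCL2 library for PRC1, and treated values stood apart in the ASCL2 line only. PRC1 had a log2 fold change of 0.03 in the WiNTRLINC1 line and fell 1.4-fold in the ASCL2 line (-0.49 ± 0.0745 SE, limma adjusted p = 0.00022), a difference of 0.52 ± 0.105 (limma adjusted p = 0.00349). ASPM (ENSG00000066279, chromosome 1), a pole protein that sets spindle orientation, was the reverse case. It had 742 and 848 with doxycycline against 1589 and 1787 without it in the WiNTRLINC1 line, and 538 and 552 against 635 and 850 in the ASCL2 line. ASPM fell 2.12-fold in the WiNTRLINC1 line (-1.09 ± 0.125 SE, limma adjusted p = 2.31e-05) and 1.35-fold in the ASCL2 line (-0.43 ± 0.125 SE, limma adjusted p = 0.0189), a difference of -0.66 (limma adjusted p = 0.0199). TPX2, the activator of Aurora A, was not called in the WiNTRLINC1 line (-0.20) and fell 1.39-fold in the ASCL2 line. NUSAP1 and DLGAP5, which stabilise spindle microtubules, fell 1.26-fold and 1.25-fold in the WiNTRLINC1 line, and 1.45-fold and 1.4-fold in the ASCL2 line.

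Several spindle calls also rested on single libraries. NUSAP1 and DLGAP5 in the WiNTRLINC1 line were lost without treated library 1 or either untreated library (limma adjusted p up to 0.193 and 0.208, without treated library 1). ASPM in the ASCL2 line was lost without untreated library 2 or either treated library (limma adjusted p up to 0.235, without untreated library 2). The differences of HMMR and ASPM were lost without any 1 of 4 and 5 libraries (limma adjusted p up to 0.07, without treated WiNTRLINC1 library 2, and 0.0984, without treated WiNTRLINC1 library 1). PRC1 and NUSAP1 share 57.6% and 62.2% of their exon bases with AC068831.7 and AC087721.2 on the same strand. Neither of these is among the identifiers of the deposited tables, so neither has a value there.

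The cytokinesis genes both differed between the lines. ANLN (ENSG00000011426, chromosome 7) encodes anillin, the scaffold of the contractile ring. It had 2507 and 2917 with doxycycline against 1783 and 1931 without it in the WiNTRLINC1 line, and 1007 and 977 against 984 and 989, which overlap, in the ASCL2 line. ANLN rose 1.46-fold in the WiNTRLINC1 line (0.54 ± 0.0885 SE, limma adjusted p = 0.000509), with 0.01 ± 0.0885 in the ASCL2 line and a difference of 0.54 (limma adjusted p = 0.00878). ECT2 (ENSG00000114346, chromosome 3), the exchange factor that activates RhoA at the division plane, had 4136 and 4267 against 4603 and 5313 in treated and untreated WiNTRLINC1 libraries and 2715 and 2580 against 4084 and 4684 in the ASCL2 line. Treated values were below untreated ones in each. ECT2 missed the threshold in the WiNTRLINC1 line (-0.24 ± 0.0868 SE, limma adjusted p = 0.076), fell 1.65-fold in the ASCL2 line (-0.72 ± 0.0868 SE, limma adjusted p = 2.49e-05), and differed by 0.49 (limma adjusted p = 0.0135). Both differences could be lost with 1 library, ANLN without treated WiNTRLINC1 library 2 (limma adjusted p = 0.0568) and ECT2 without any 1 of 4 (up to 0.0674). The ANLN stretch printed above holds letters of the homology element, which 30 of the 34 genes with an entry hold in a window, but no CCAAT box.

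On the chromosomes themselves, the proliferation marker MKI67 fell in both lines. MKI67 (ENSG00000148773, chromosome 10), a coat protein of mitotic chromosomes, had 7086 and 7655 with doxycycline against 9555 and 12595 without it in the WiNTRLINC1 line, and 4347 and 4508 against 6545 and 6923 in the ASCL2 line. It fell 1.49-fold (-0.57 ± 0.102 SE, limma adjusted p = 0.00105) in the WiNTRLINC1 line and 1.52-fold (-0.60 ± 0.102 SE, limma adjusted p = 0.000504) in the ASCL2 line, with a difference of 0.03 ± 0.144. TOP2A, the topoisomerase that untangles sister chromatids, had a log2 fold change of -0.15 in the WiNTRLINC1 line and fell 1.33-fold in the ASCL2 line.

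**Figure D4:**
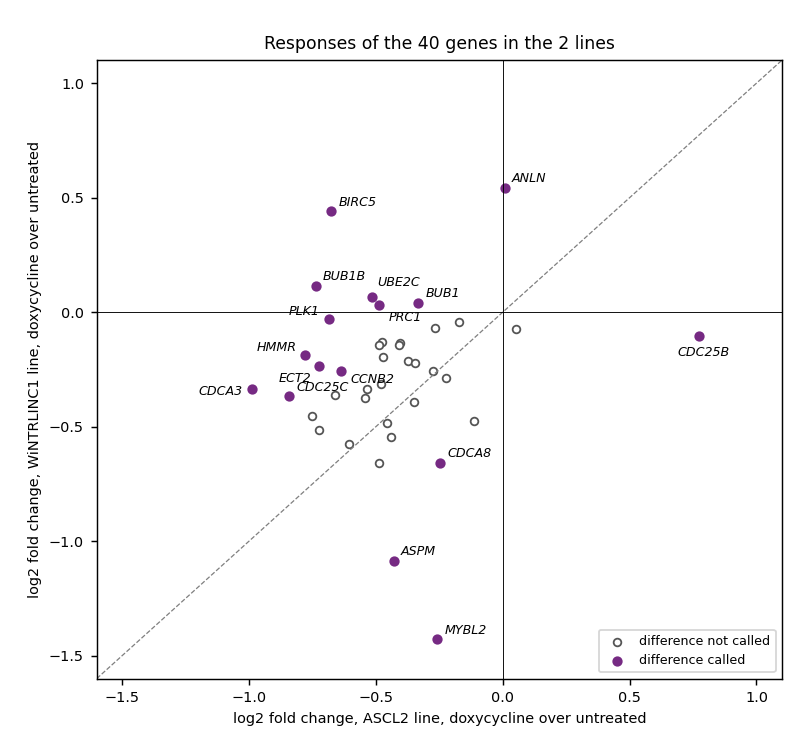
Each point is 1 of the 40 genes, with its log2 fold change in the WiNTRLINC1 line on the y axis and in the ASCL2 line on the x axis; the dashed line marks equal responses. The 16 filled, named genes differed between the lines: 12 lie above the dashed line, up to BIRC5 (difference 1.12), and 4 below it, down to MYBL2 (-1.17).

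The lines already differed without doxycycline. Of the 40 genes, 31 were higher in the untreated WiNTRLINC1 line than in the untreated ASCL2 line and 2, CDC25B and CENPA, lower. The background was 25.7% higher and 29.5% lower. Among the 9831 genes with a mean at or above that of the lowest member, 33% were higher and 35.7% lower. The median difference was 0.49 on the log2 scale, against -0.04 over all tested genes. ASPM stood 2.29-fold higher (1.20 ± 0.125 SE, limma adjusted p = 1.24e-06), KIF20A 2.19-fold higher (1.13 ± 0.0876 SE, limma adjusted p = 5.68e-08) and CCNB1 1.9-fold higher (0.92 ± 0.0779 SE, limma adjusted p = 1.34e-07). CDC25B was 1.8-fold lower (-0.85 ± 0.0698 SE, limma adjusted p = 1.02e-07) and CENPA 1.63-fold lower (-0.71 ± 0.111 SE, limma adjusted p = 7.5e-05). FOXM1, BIRC5, CCNB2, CDK1, KIF11, NUF2 and ECT2 were not called, with differences between -0.07 and 0.20. With these starting levels, 25 of the 40 genes were higher in both treated WiNTRLINC1 libraries than in both untreated ASCL2 libraries, against 36.8% of all tested genes, and 8 were lower in both, against 41.0%. The lines are separate derivatives, so target, clone and line cannot be told apart here. The calls of CCNA2, CENPE, CENPF, PLK1, TOP2A, TTK and UBE2C were lost without at least 1 library, with limma adjusted p up to 0.379 for UBE2C without untreated WiNTRLINC1 library 1.

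Levels between genes were compared as the mean value of 2 libraries per kilobase of merged exon, within each group. In the WiNTRLINC1 line CCNB1 stood first, at 1793 with doxycycline and 2300 without it. In the ASCL2 line CDC25B did, at 2384 with doxycycline and 1395 without it, where CCNB1 had 766 and 1213. At the low end, TTK and CENPE lay among the lowest 3 of the 40 in every group: CENPE had 60.7 with and 84.5 without doxycycline in the WiNTRLINC1 line, and 59.6 with and 65.2 without it in the ASCL2 line. TTK had 86.6 and 89.3 in treated and untreated WiNTRLINC1 libraries, and 59.6 and 67.5 in those of the ASCL2 line. The values of TTK and CENPE overlapped between libraries in the untreated WiNTRLINC1 group and in both ASCL2-line groups, so their order there is not resolved.

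Responses were also set against the promoter letters. Of the 30 genes with TTTGAA or TTTAAA, 15 were called lower in the WiNTRLINC1 line and 24 in the ASCL2 line, with median log2 fold changes of -0.27 and -0.48. For comparison, 18 and 33 of all 40 genes were called lower in these lines, and 9.03% and 12.7% of all tested genes. The 4 genes without these letters were AURKB, BUB1, CCNA2 and MYBL2, which may hold the element in a spelling that was not searched. Of them 2 and 4 were called lower in the WiNTRLINC1 and ASCL2 lines, with medians of -0.33 and -0.30. For CCAAT, 14 of 27 genes with the box were called lower in the WiNTRLINC1 line and 24 in the ASCL2 line, against 3 and 4 of the 7 genes without it. With so few genes lacking either motif these are counts only.

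Other genes of the same machinery were counted too, with each list's median log2 fold change beside its counts. In the WiNTRLINC1 line 9.03% of all tested genes were called lower and 9.54% higher. The ASCL2 line had 12.7% lower and 13.9% higher. Among the 9831 genes at or above the lowest member mean, these shares were 14.9% and 16.6%, and 19.6% and 24.2%. Condensin and cohesin genes, which shape and hold chromosomes, had 7 of 17 called lower and 0 higher in the WiNTRLINC1 line, and 11 lower and 0 higher in the ASCL2 line (medians -0.18 and -0.36). SGO1, the shugoshin that protects centromeric cohesin, fell 1.58-fold in the WiNTRLINC1 line (-0.66 ± 0.161 SE, limma adjusted p = 0.00948). STAG1, a cohesin subunit, fell 1.96-fold (-0.97 ± 0.0908 SE, limma adjusted p = 2.26e-06) and the condensin subunit NCAPD2 1.49-fold (-0.57 ± 0.0712 SE, limma adjusted p = 3.32e-05) in the ASCL2 line. Among other checkpoint and kinetochore genes, 8 of 28 were lower and 1 higher in the WiNTRLINC1 line, and 12 lower and 0 higher in the ASCL2 line (medians -0.13 and -0.32). CENPH, of the inner kinetochore, fell 3.86-fold in the WiNTRLINC1 line (-1.95 ± 0.147 SE, limma adjusted p = 4.99e-07), and ZWINT, which links the checkpoint to the kinetochore, 2.66-fold in the ASCL2 line (-1.41 ± 0.0706 SE, limma adjusted p = 5.48e-09). INCENP, the scaffold of the passenger complex, fell 1.93-fold in the WiNTRLINC1 line and 1.55-fold in the ASCL2 line. Other motors, spindle and cytokinesis genes had 4 of 18 lower in the WiNTRLINC1 line and 13 in the ASCL2 line, with 0 higher in either (medians -0.16 and -0.41). They included RACGAP1, the partner of KIF23, 1.4-fold lower in the WiNTRLINC1 line (-0.48 ± 0.0943 SE, limma adjusted p = 0.00222), and the minus-end motor KIFC1, 1.64-fold lower in the ASCL2 line (-0.71 ± 0.0853 SE, limma adjusted p = 2.59e-05).

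The anaphase-promoting complex and its partners had 1 of 17 lower and 1 higher in the WiNTRLINC1 line. In the ASCL2 line 4 were lower and 0 higher. Their medians were 0.05 and -0.03, where all tested genes had medians of 0.01 in each. Shares over all tested genes were 9.03% lower and 9.54% higher in the WiNTRLINC1 line, and 12.7% and 13.9% in the ASCL2 line. The WiNTRLINC1-line counts of this list lay near those shares. ANAPC13 rose 1.49-fold in the WiNTRLINC1 line (0.57 ± 0.0909 SE, limma adjusted p = 0.00041) and fell 1.45-fold in the ASCL2 line (-0.53 ± 0.0909 SE, limma adjusted p = 0.000528). Genes of the G2/M switch and mitotic chromatin had 7 of 17 lower and 1 higher in the WiNTRLINC1 line, and 10 lower and 1 higher in the ASCL2 line (medians -0.24 and -0.30). LMNB1, the lamin B1 of the nuclear envelope, fell 2.83-fold in the WiNTRLINC1 line (-1.50 ± 0.0782 SE, limma adjusted p = 1.65e-08). ARPP19 and ENSA, which as targets of the Greatwall kinase block the phosphatase PP2A in mitosis, fell 2.68-fold (-1.42 ± 0.0886 SE, limma adjusted p = 4.71e-08) and 1.68-fold (-0.75 ± 0.08 SE, limma adjusted p = 7.92e-06) in the ASCL2 line. MuvB, DREAM, E2F and NF-Y genes, known as regulators of this programme, had 1 of 18 lower and 2 higher in the WiNTRLINC1 line. These counts too lay near the shares over all tested genes. In the ASCL2 line 6 were lower and 1 higher (medians 0.04 and -0.18 in the WiNTRLINC1 and ASCL2 lines). E2F5, a mostly repressive E2F, rose 1.99-fold (0.99 ± 0.111 SE, limma adjusted p = 1.89e-05) in the WiNTRLINC1 line and 1.7-fold (0.77 ± 0.111 SE, limma adjusted p = 0.000136) in the ASCL2 line. RBL2, the pocket protein p130 of the DREAM repressor, fell 1.49-fold in the ASCL2 line (-0.57 ± 0.0816 SE, limma adjusted p = 0.000113).

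Replication and S-phase genes had 14 of 39 lower and 0 higher in the WiNTRLINC1 line, and 26 lower and 0 higher in the ASCL2 line (medians -0.17 and -0.33). Of all tested genes 9.03% and 12.7% were called lower in the WiNTRLINC1 and ASCL2 lines. The transcription factor gene E2F1 fell 1.82-fold in the WiNTRLINC1 line (-0.86 ± 0.0926 SE, limma adjusted p = 1.17e-05), and MCM3, a subunit of the replicative helicase, 2.38-fold in the ASCL2 line (-1.25 ± 0.0669 SE, limma adjusted p = 1.15e-08). Of 12 brakes on the cycle 3 were higher and 3 lower in the WiNTRLINC1 line, while 7 were higher and 1 lower in the ASCL2 line (medians -0.01 and 0.39). The shares of all tested genes called higher were 9.54% and 13.9%. CDKN1A, the CDK inhibitor p21, which is known to shut off this programme through DREAM, had 4890 and 4863 with doxycycline against 5476 and 4952 without it in the WiNTRLINC1 line. In the ASCL2 line it had 10163 and 11586 against 5866 and 5204, with both treated values above both untreated ones. CDKN1A had a log2 fold change of -0.09 in the WiNTRLINC1 line and rose 1.96-fold in the ASCL2 line (0.97 ± 0.0851 SE, limma adjusted p = 1.22e-06), a difference of -1.07 (limma adjusted p = 2.76e-05). CDKN1B, the inhibitor p27, fell 1.23-fold in the WiNTRLINC1 line (-0.29 ± 0.0794 SE, limma adjusted p = 0.0174) and rose 1.45-fold in the ASCL2 line (0.53 ± 0.0794 SE, limma adjusted p = 0.000171). BTG2, an antiproliferative p53 target, fell 1.45-fold in the WiNTRLINC1 line (-0.53 ± 0.0962 SE, limma adjusted p = 0.00116), and the related TOB1 rose 1.33-fold there (0.41 ± 0.0868 SE, limma adjusted p = 0.00409). CDKN2C, the inhibitor p18, fell 2.06-fold in the ASCL2 line (-1.04 ± 0.115 SE, limma adjusted p = 1.13e-05).

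**Figure D5:**
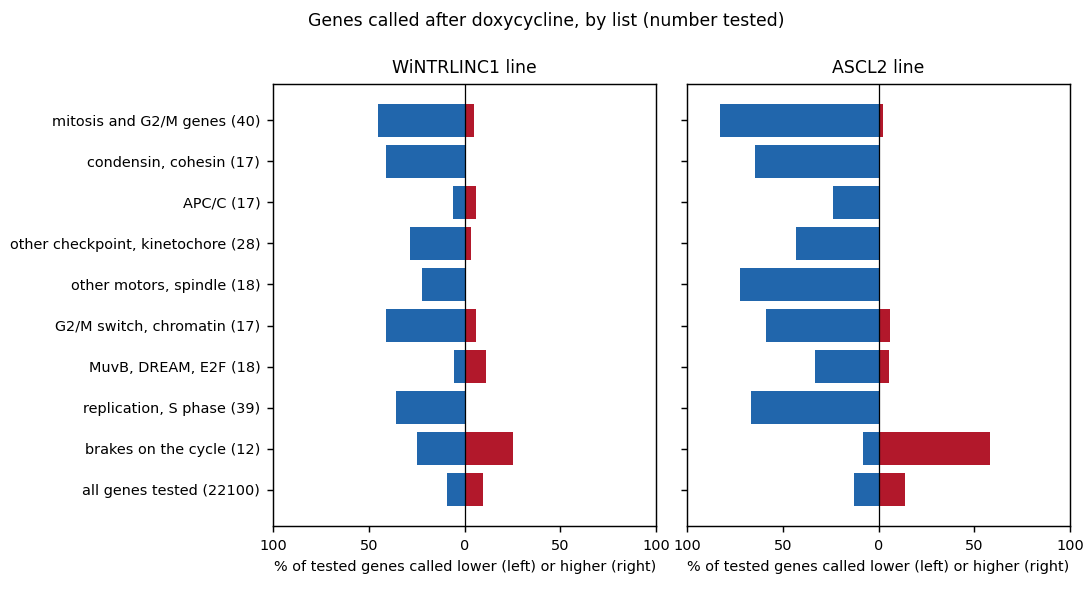
Bars give the percentage of tested genes of each list called lower (blue, left) or higher (red, right) with doxycycline, for the WiNTRLINC1 line on the left and the ASCL2 line on the right, with the number tested in brackets. In the WiNTRLINC1 line 18 of 40 mitosis and G2/M genes and 14 of 39 replication genes are lower. In the ASCL2 line 33 of 40 and 26 of 39 are lower and 7 of 12 brakes higher. The bottom bars give all tested genes, 9.03% lower and 9.54% higher in the WiNTRLINC1 line, 12.7% and 13.9% in the ASCL2 line.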

How the data were processed

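RNA was sequenced on the Ion Proton from LS174T derivatives, per the labels' protocols, with 2 libraries in each of 4 groups taken from the sample titles. The submitters' processing notes list cutadapt, TopHat2 2.0.9, Cufflinks and DESeq as tools and hg19, GRCh37 and mm9 as builds, with no role for any. As to the counting program and its strand setting, neither is given in the sources used here. Each deposited value is a score: the authors' files hold whole numbers only, but in 3 of the 8 libraries 20 to 32 of the whole numbers up to 200 were held by no gene, as scaling before rounding would leave them; the other 5 libraries had 0 to 2 such numbers. Count models were therefore not used, no unscaled depth is given, and precision rests on 2 libraries per group.

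Identifiers were matched to symbols (51959 of 57736), and exon lengths and overlaps came from GENCODE 29, without printing its coordinates. The 22100 genes that reached 10 in 2 or more libraries were fitted in R 4.3.3 with limma 3.58.1 on log2(value + 1), with limma's trend option, all 8 libraries and no covariates (4 residual and 10.5 prior degrees of freedom). On this scale the changes of low genes are understated. P-values were adjusted by Benjamini-Hochberg over all tested genes in each comparison. The script was tested on simulated data. Alternatives were 19 or 20 other settings per comparison, among them other pseudocounts, filters and scalings, a replicate block and each library left out. Of the members, per-library values are given for the 12 smallest adjusted p in the ASCL2 line, the 6 smallest in the WiNTRLINC1 line, those called against the majority and those called in the difference of responses. From each other list up to 3 genes ranked by adjusted p in a comparison were eligible. The list genes without an identifier were left out (UHRF1 and the endothelium marker PECAM1). The members and lists were chosen with earlier results of these data known.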

Additional observations from a re-analysis of the deposited data

Results flagged for a closer look

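For 16 of the 40 genes the doxycycline response differed between the lines by the limma test of the difference itself, with Benjamini-Hochberg adjustment over all 22100 genes. The values here are the WiNTRLINC1-line response minus the ASCL2-line response on the log2 scale. The response lay higher in the WiNTRLINC1 line for BIRC5 by 1.12, for BUB1B by 0.85, for PLK1 by 0.66 and for CDCA3 by 0.65. It was also higher for HMMR by 0.59, for UBE2C by 0.58, for ANLN by 0.54, for PRC1 by 0.52 and for ECT2 by 0.49. Smaller differences were those of CDC25C (0.47), CCNB2 (0.38) and BUB1 (0.37). The difference was negative for MYBL2 (-1.17), CDC25B (-0.88), ASPM (-0.66) and CDCA8 (-0.41). With every library left out in turn, 7 of the 16 stayed called: BIRC5, BUB1B, CDC25B, CDCA3, MYBL2, PLK1 and PRC1. Of these, CDCA3 and PRC1 missed the threshold when limma was run without its mean-variance trend (limma adjusted p = 0.0581 and 0.0814). Drug, hairpin, clone and starting level cannot be told apart as sources of the differences between the lines.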

How the results depend on the processing

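Under 20 alternatives for each line's response, and 19 for the difference and the untreated lines, no median of the 40 genes changed sign. Without the mean-variance trend, 7 genes were called lower and 1 higher in the WiNTRLINC1 line, 21 lower in the ASCL2 line, and 2 lower and 3 higher in the difference. The WiNTRLINC1-line rise of BIRC5 then missed the threshold (limma adjusted p = 0.0593). Without the filter on low values, 12 genes were called lower in the WiNTRLINC1 line and 26 in the ASCL2 line, and the difference had 2 lower and 5 higher. With each line fitted alone, 15 were lower in the WiNTRLINC1 line and 26 in the ASCL2 line. Over all genes the calls numbered 1873 without the trend, 2395 without the filter, 2713 with the line fitted alone and 2393 to 4126 with 1 library left out, against 4104 as reported, in the WiNTRLINC1 line. In the ASCL2 line they numbered 3410 without the trend and 3662 to 5824 with 1 library left out, against 5884, and in the difference 1313 without the trend and 1914 without the filter, against 3314. The medians moved by more than the spread between libraries under other scalings: with equal totals to -0.52 in the ASCL2 line, 0.26 in the difference and 0.46 between untreated lines, with quantile normalization to -0.51, 0.26 and 0.54, and with median-of-ratios scaling to 0.54 between untreated lines. With each library left out in turn, the WiNTRLINC1 line had 10 to 19 genes lower and a median of -0.30 to -0.20, and the ASCL2 line 26 to 34 lower. The difference had 2 to 4 lower, 6 to 10 higher and a median of 0.19 to 0.28, and the untreated lines a median of 0.47 to 0.56. An arm left with 1 library was assumed to vary like the other groups. Of the single calls, 11 of 20 in the WiNTRLINC1 line, 24 of 34 in the ASCL2 line, 7 of 16 in the difference and 26 of 33 between untreated lines held whichever library was left out. No label ties a replicate number to a shared culture or day, and 2 pairs per line are too few to settle pairing from the data, so numbers were not taken as pairs. Deviations of same-numbered libraries had r = 0.30 in the WiNTRLINC1 line, -0.14 in the ASCL2 line, 0.13 between untreated groups and -0.01 between treated groups over 13215 genes. A fit with the replicate number as a block called 20 lower and 2 higher in the WiNTRLINC1 line, 34 and 1 in the ASCL2 line, 4 and 12 in the difference and 2 and 31 between untreated lines. Crossing the ASCL2-line numbers, chosen after seeing the data, gave 23 and 2, 34 and 1, 4 and 15, and 2 and 32. The causes of these changes were not tested. With 2 libraries per group, small changes were often not detectable.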
